A study of Mus musculus with 12 samples.

Results

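The 9 genes described here handle or sense GABA, the main inhibitory transmitter of the cortex, in ribosome-bound RNA of astrocytes. They were taken by symbol from the 52550 features of the raw count table, and all 9 were found: the transporter Slc6a11, the enzymes Abat, Aldh5a1 and Maob, the GABA-A receptor subunits Gabra2, Gabrb1 and Gabrg1, and the GABA-B receptor subunits Gabbr1 and Gabbr2. The material was somatosensory cortex of mice at postnatal day 40 on an FVB/C57 background. All animals carried the Aldh1l1-TRAP transgene, which puts an eGFP-tagged ribosome in cells that use the astrocyte promoter Aldh1l1, so that anti-eGFP beads pull down their ribosomes with the bound RNA. One group was Fmr1 KO (Fmr1−/y, which lacks FMRP, an RNA-binding protein whose loss causes fragile X syndrome) and the other was WT (Fmr1+/y), with 3 libraries each. Libraries are written KO 14, KO 16 and KO 18 for the knockout and WT 13, WT 15 and WT 17 for the wild type, after their numbers in the labels. Each library was deposited as 2 entries, which were summed. Whether every library is a separate animal is not in the labels, so p-values measure only the spread between these samples, which may be technical. In RNA of whole pull-downs, fewer cells of a type and less RNA per cell cannot be told apart.

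Astrocytes take up GABA that escapes from synapses. The transporter GAT3, the product of Slc6a11, sits mainly on astrocyte processes. Inside the cell GABA transaminase (Abat) turns GABA into succinic semialdehyde, and succinic semialdehyde dehydrogenase (Aldh5a1) passes this on to the citric acid cycle as succinate. Monoamine oxidase B (Maob) works in the other direction in astrocytes, in the route that makes GABA from putrescine. GABA-A receptors are pentameric chloride channels, and GABA-B receptors are G protein-coupled dimers of one Gabbr1 and one Gabbr2 product.

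Depth was lowest in KO 16, at 10953947 counts in all, and highest in WT 15, at 22397234. Features that collect ribosomal RNA reads (CT010467.1, Lars2 and AY036118) took 35.6% of KO 14 and 45.1% of KO 16, against 0.892% to 7.45% in the other 4. Without these features 10146188 counts were left in KO 14 and 6012112 in KO 16, against 19601657 to 21503369 in the other 4. Fmr1 stood at 4.32, 4.22 and 1.32 CPM (counts scaled to library size, here with the TMM method of edgeR) in KO 14, 16 and 18 and at 31.6, 38.4 and 37.0 CPM in WT 13, 15 and 17. The quasi-likelihood test of edgeR, used throughout, did not call even this targeted gene (adjusted p = 0.300), which was called by DESeq2, at an adjusted p of 3.18e-16, and by the exact test of edgeR, at 1.68e-11. All 18 astrocyte markers were detected, with a summed level of 20112 to 27675 CPM in the knockout and 20430 to 28117 CPM in the wild type. The 15 neuron markers, none of them at 0, summed to 2428 to 3295 CPM in KO and 1795 to 3124 CPM in WT, and the 10 oligodendrocyte markers to 637 to 1472 CPM and 700 to 1246 CPM. Relative to the wild-type mean, the median astrocyte marker was lowest in WT 17 (log2 difference -0.44) and KO 18 (-0.35). The median neuron marker was highest in the same libraries (0.38 and 0.54). So was the median oligodendrocyte marker (0.51 and 0.72), while the median microglia marker was not (0.0095 and -0.32). Libraries 13, 14 and 16 carry a 5 and libraries 15, 17 and 18 a 6 as the first number of a pair in their titles, whose meaning the labels do not give. A comparison of genotypes within 5 thus rests on 1 WT library, and that within 6 on 1 KO library.

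For none of the 9 genes did the difference between genotypes pass the test against the spread between libraries. In edgeR's quasi-likelihood test over 14990 genes, 0% of genes passed an adjusted p of 0.05, and 0 of the 9 did, each with an adjusted p of 1.00. DESeq2 called 8 genes (0.0534%) and edgeR's exact test 9 genes (0.06%), again 0 of these 9. Without adjustment, a p under 0.05 was reached by 1.77% of all genes in the quasi-likelihood test, 1.83% with DESeq2 and 1.65% with the exact test, and by 0 of the 9 in each. Of the 9 genes 6 were on the higher and 3 on the lower side in the knockout, with a median log2 fold change of 0.023, against a median of -0.0019 over all genes tested. That tally depended on single libraries: it was 1 higher and 8 lower without WT 17, 3 and 6 without KO 14 or without KO 16, 7 and 2 without WT 13 or without WT 15, and 8 and 1 without KO 18. With the title number as a covariate it was 1 and 8, with a median of -0.12. Maob was the 1 gene of the 9 whose genotypes did not overlap, where 6.2% of all genes did not overlap, so that a count of 1 in 9 does not set these genes apart. The counts behind these values ran from 266 for Gabra2 in KO 16 to 20794 for Gabbr1 in WT 13.

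**Figure D1:**
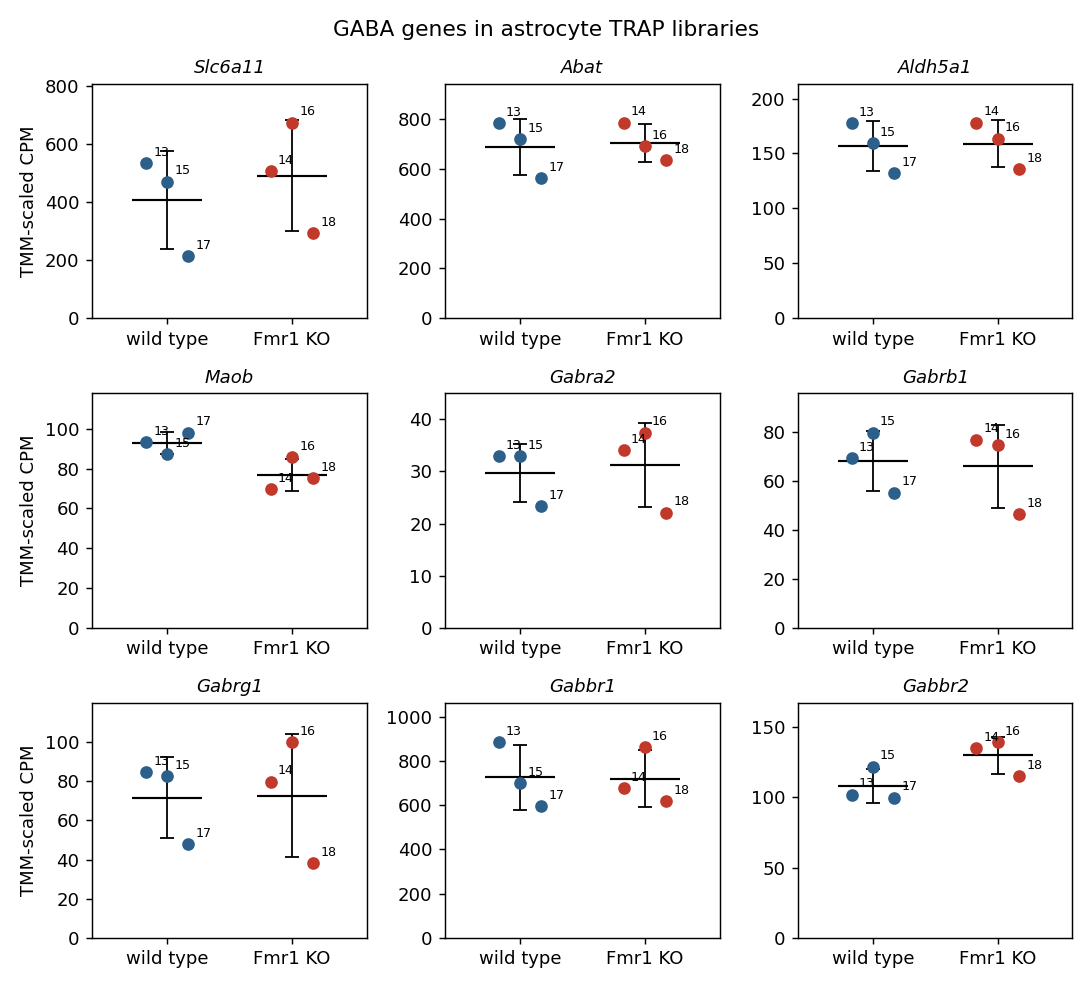
TMM-scaled CPM (vertical axes) of the 9 genes in each library, labelled by library number, in wild type (blue) and Fmr1 KO (red), with horizontal lines at the mean and bars of ± 1 SD (n = 3). Maob alone has all knockout libraries below all wild-type libraries, and libraries 17 and 18 are low for Slc6a11 (214 and 292 CPM) and Gabrg1 (47.8 and 38.1 CPM).

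Of the 9 genes 7 were lowest in libraries 17 and 18, namely all but Maob and Gabbr2. The bases before the start of 3 of these 7, Slc6a11, Gabrg1 and Gabra2, are shown as examples of how far the composition of such starts differs, and the shared low libraries do not single these 3 out. Each line gives the 250 bases before the start in the RefSeq table (build GRCm38.p6), read 5′ to 3′ along the strand of the gene, with CG dinucleotides in capitals. The windows are chr6:114130991-114131240 (plus strand) for Slc6a11, chr5:70842618-70842867 (minus strand) for Gabrg1 and chr5:71095850-71096099 (minus strand) for Gabra2.
Slc6a11: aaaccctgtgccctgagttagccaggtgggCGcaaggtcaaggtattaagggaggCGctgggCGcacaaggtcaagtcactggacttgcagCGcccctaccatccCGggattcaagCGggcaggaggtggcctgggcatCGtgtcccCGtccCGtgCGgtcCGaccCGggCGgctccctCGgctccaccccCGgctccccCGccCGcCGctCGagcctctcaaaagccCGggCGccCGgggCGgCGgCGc
Gabrg1: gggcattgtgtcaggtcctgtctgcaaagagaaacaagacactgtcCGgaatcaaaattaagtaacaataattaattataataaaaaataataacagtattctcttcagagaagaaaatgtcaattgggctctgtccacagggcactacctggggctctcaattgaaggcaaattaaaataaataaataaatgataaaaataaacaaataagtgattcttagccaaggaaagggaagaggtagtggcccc
Gabra2: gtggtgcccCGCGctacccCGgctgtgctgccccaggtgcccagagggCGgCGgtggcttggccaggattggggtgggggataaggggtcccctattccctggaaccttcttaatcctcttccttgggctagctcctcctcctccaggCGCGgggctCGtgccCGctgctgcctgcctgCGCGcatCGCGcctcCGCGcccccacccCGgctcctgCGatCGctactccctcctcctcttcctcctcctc
The window of Slc6a11 holds 25 CG dinucleotides, and 10.7% of 32851 windows of this length hold as many. That of Gabra2 holds 18, reached by 21.7% of windows, while that of Gabrg1 holds 1, and 18.8% of windows hold as few. The median over all windows is 6. These counts describe the windows and say nothing about what acts on them. Of the 9 genes 7 had a window in the table.

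Slc6a11, the transporter gene, varied widely between libraries of one genotype. It lies on chromosome 6 from 114131241 to 114249886 (GRCm38.p6). Its level was 507, 674 and 292 CPM in KO 14, 16 and 18 and 534, 471 and 214 CPM in WT 13, 15 and 17. The genotypes overlapped, and the low libraries were 18 in one group and 17 in the other. The means were 491 ± 191 CPM in KO and 407 ± 169 CPM in WT (n = 3 each, SD; log2 fold change 0.27, SE 0.38). The 95% interval of the fold ran from 0.657 to 2.22. The highest library stood 3.14-fold above the lowest, a wider spread than that of 97.9% of 9349 genes with a mean of at least 10 CPM, whose median was 1.45-fold. Within the libraries of title number 5 the log2 difference was 0.13, and within those with 6 it was -0.12. The median astrocyte marker was also lowest in libraries 17 and 18, and its part in the levels of Slc6a11 was not tested.

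Per read of Aldh1l1, the astrocyte gene whose promoter drives the tag, Slc6a11 gave 1.23 ± 0.565 in KO and 0.940 ± 0.376 in WT with overlapping groups (n = 3 each, SD; log2 difference 0.36). The exact two-sided permutation p was 0.5, where 0.1 is the smallest that 3 libraries against 3 can give, and 0.75 after Benjamini-Hochberg adjustment over 6 ratios. Within the libraries of title number 5 the log2 difference of this ratio was 0.28, and within those of 6 it was -0.21. Aldh1l1 itself, also on the astrocyte marker list, measured 398, 380 and 453 CPM in KO 14, 16 and 18 and 434, 439 and 415 CPM in WT 13, 15 and 17. It was thus highest in KO 18, unlike the median astrocyte marker.

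**Figure D2:**
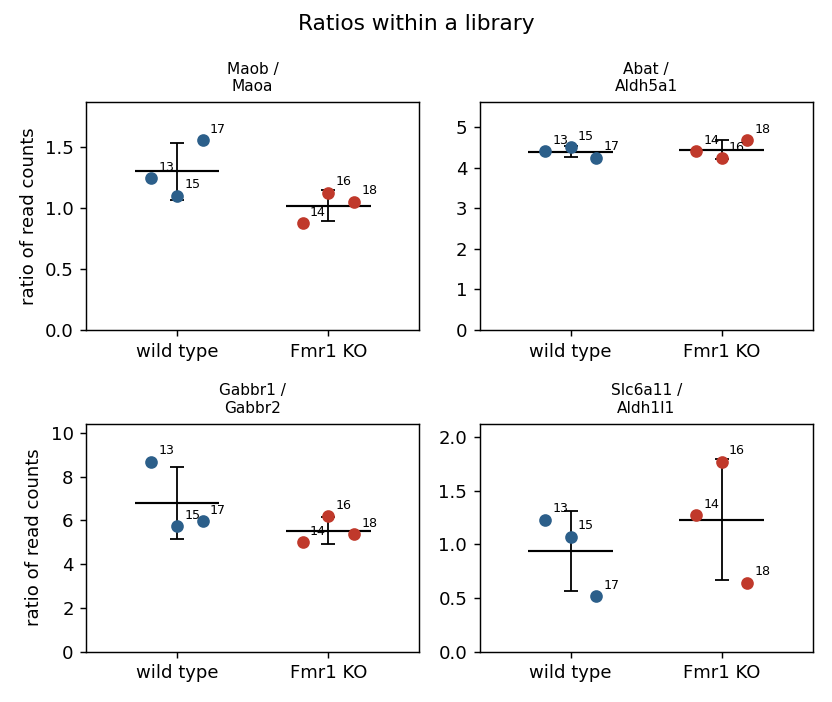
Ratio of read counts of the named genes within each library (vertical axes, no unit), labelled by library number, in wild type (blue) and Fmr1 KO (red), with lines at the mean and bars of ± 1 SD (n = 3). The groups overlap in all 4 ratios, and Abat over Aldh5a1 has the narrowest range, from 4.23 to 4.69.

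Abat and Aldh5a1, the enzymes of GABA breakdown, stood at nearly the same level in both genotypes. Abat, on chromosome 16 from 8513429 to 8621568, measured 787, 691 and 636 CPM in KO 14, 16 and 18 and 784, 720 and 562 CPM in WT 13, 15 and 17. Its means were 705 ± 76.2 and 689 ± 114 CPM (n = 3 each, SD), with a 95% interval of the fold from 0.784 to 1.34. Aldh5a1, on chromosome 13 from 24907579 to 24937661, measured 178, 163 and 136 CPM in KO 14, 16 and 18 and 178, 159 and 132 CPM in WT 13, 15 and 17. The groups overlapped for both genes, and the order of the libraries was the same for both: 14 above 16 above 18, and 13 above 15 above 17. The fold of Aldh5a1 had a 95% interval from 0.778 to 1.33. Aldh5a1 was the 1 member with fractional expected counts, which RSEM gives where reads match several features. Reads of Abat per read of Aldh5a1 stayed between 4.23 and 4.69 in the 6 libraries.

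Maob, the monoamine oxidase of the putrescine route, stood lower in each knockout library than in each wild-type library. Maob lies on chromosome X from 16709281 to 16817366. Its level was 69.8, 85.8 and 75.1 CPM in KO 14, 16 and 18 and 93.3, 87.2 and 98.1 CPM in WT 13, 15 and 17. The nearest values of the groups, 85.8 and 87.2 CPM, lay close together. The means were 76.9 ± 8.12 and 92.8 ± 5.44 CPM (n = 3 each, SD), a log2 fold change of -0.27 with an SE of 0.14. The 95% interval of the fold ran from 0.666 to 1.03, the unadjusted p of edgeR's quasi-likelihood test was 0.0797 and the exact permutation p was 0.1, the smallest possible. Among all genes, 3.25% did not overlap in this direction. The log2 difference of Maob was -0.27 within the libraries of title number 5 (2 KO, 1 WT) and -0.30 within those of 6 (1 KO, 2 WT). Without KO 14 and KO 16 it was -0.28. With groups that do not overlap, the sign in such subsets and the permutation p of 0.1 were all but fixed in advance. The median of the 11 microglia markers, all detected, was also lower in each KO library, at -0.19, -0.30 and -0.32 against 0.016, -0.019 and 0.0095 (log2, relative to the wild-type mean). Their summed level was 56.4 to 64.7 CPM in KO and 62.6 to 79.4 CPM in WT, and their part in the level of Maob was not tested. In the authors' deposited table, whose test is not named, Maob had a log2 fold change of -0.28. Its unadjusted p there was 0.0189 and its adjusted p 0.514. Whether that test took the 2 entries of a library as separate samples is not given.

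Maoa, the paralog of Maob and its neighbour on chromosome X, 21468 bases away, did not share this pattern of groups. Maoa measured 79.5, 76.0 and 71.3 CPM in KO 14, 16 and 18 and 74.8, 79.1 and 62.9 CPM in WT 13, 15 and 17. Its genotypes overlapped. Reads of Maob per read of Maoa were 0.878, 1.13 and 1.05 in KO 14, 16 and 18 and 1.25, 1.10 and 1.56 in WT 13, 15 and 17 (log2 difference -0.35). The groups of this ratio overlapped, since KO 16 stood at 1.13 and WT 15 at 1.10, with an exact permutation p of 0.2 (0.6 adjusted over the 6 ratios).

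**Figure D3:**
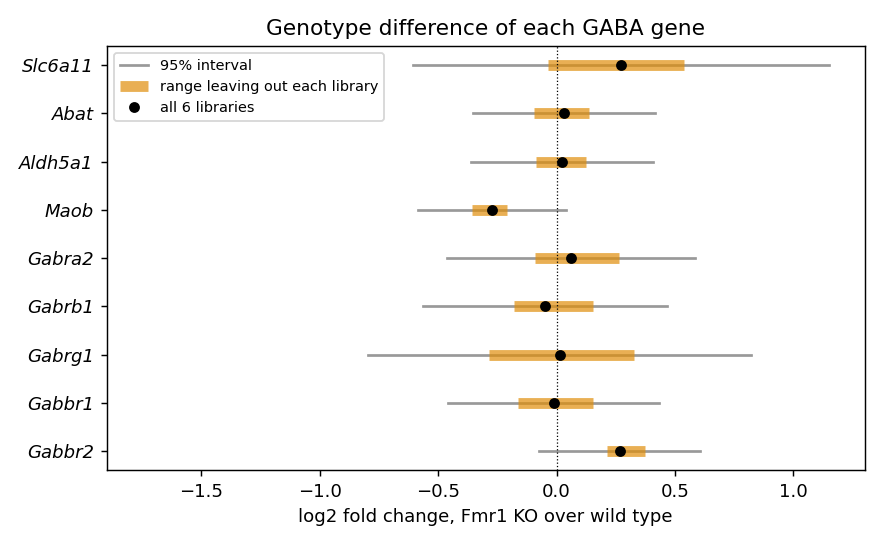
Log2 fold change of Fmr1 KO over wild type (horizontal axis) for each of the 9 genes, with points for the fit on 6 libraries, thin lines for the 95% interval and thick bars for the range when each library is left out in turn. All 9 intervals include 0, and the thick bars of Maob (-0.36 to -0.21) and Gabbr2 (0.21 to 0.37) are the 2 that stay on one side of it. For Maob this was all but fixed in advance, since its groups do not overlap.

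The GABA-A subunit genes Gabra2, Gabrb1 and Gabrg1 encode an alpha, a beta and a gamma subunit and lie in one stretch of chromosome 5. Gabrg1 spans 70751047 to 70842617, Gabra2 spans 70958392 to 71095849 and Gabrb1 spans 71657921 to 72149572 (GRCm38.p6), with Gabra4, a further alpha subunit, between the latter. Gabra4 and Gabrb1 overlap at their starts. The library kit keeps strand, per the labels, but whether the counting used it is not given, so reads in the overlap cannot be assigned with certainty. The summed expected counts of Gabrb1 were whole numbers in all 6 libraries. Gabra2 measured 34.1, 37.5 and 22.1 CPM in KO 14, 16 and 18 and 33.0, 32.9 and 23.3 CPM in WT 13, 15 and 17. Gabrb1 measured 76.9, 74.6 and 46.5 CPM and 69.4, 79.8 and 55.2 CPM in the same order. The third subunit gene, Gabrg1, measured 79.9, 99.98 and 38.1 CPM in the knockout and 84.8, 82.6 and 47.8 CPM in the wild type.

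All 3 subunit genes were lowest in KO 18 and next lowest in WT 17, and the genotypes overlapped for each. Mean levels were 31.2 ± 8.08 and 29.8 ± 5.56 CPM for Gabra2, 66.0 ± 16.9 and 68.1 ± 12.3 CPM for Gabrb1 and 72.7 ± 31.5 and 71.7 ± 20.7 CPM for Gabrg1 in KO and WT (n = 3 each, SD). The 95% interval of the fold was widest for Gabrg1, from 0.576 to 1.77, and ran from 0.677 to 1.38 for Gabrb1, while that of the log2 fold change of Gabra2 ran from -0.46 to 0.58. Between the highest and lowest of the 6 libraries Gabrg1 differed 2.62-fold, more than 95.8% of the 9349 genes. Gabra2 and Gabrb1 differed 1.70-fold and 1.71-fold. Within the libraries of title number 6 the knockout library was lower for all 3 (log2 difference -0.33, -0.51 and -0.72 for Gabra2, Gabrb1 and Gabrg1), and within those of 5 the differences were 0.11, 0.13 and 0.076. Without KO 14 and 16, which leaves KO 18 alone, the log2 fold changes were -0.40, -0.52 and -0.89 (adjusted p of 0.965 for each in edgeR's quasi-likelihood test, with the lone library assumed to vary like the others).

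Other GABA-A subunit genes ran differently across the libraries. Of 16 on the list 9 had enough reads to be tested, 0 passed, and all 9 were on the lower side in the knockout with a median log2 fold change of -0.16. That side depended on WT 17: without it 6 of the 9 were higher (median 0.074), as with the title number as a covariate (6 higher, median 0.066). Without WT 13 the median was -0.46, and without WT 15 it was -0.055. Gabrb2, a beta subunit, measured 49.8, 48.0 and 54.9 CPM in KO 14, 16 and 18 and 30.2, 56.0 and 71.5 CPM in WT 13, 15 and 17. The wild-type libraries thus spread widely while the knockout libraries lay close together. In WT 13, 15 and 17 the median neuron marker stood at -0.61, 0.25 and 0.38 (log2, relative to the wild-type mean). In KO 14, 16 and 18 it stood at 0.051, -0.18 and 0.54. By genotype, 13 of the 15 neuron markers were on the higher side in the knockout and 2 on the lower (median log2 fold change 0.12), and 0 passed. The part of neuronal RNA in the levels of the subunit genes was not tested.

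**Figure D4:**
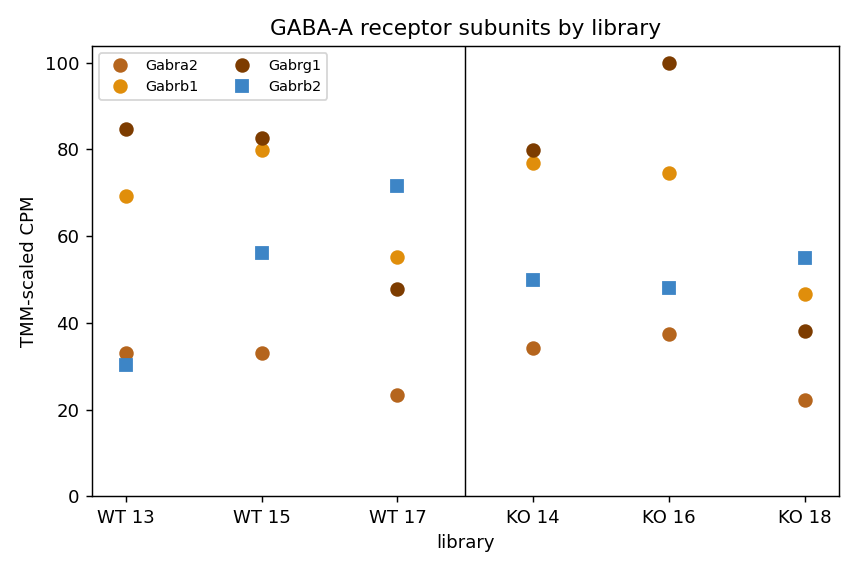
TMM-scaled CPM (vertical axis) of 4 GABA-A subunit genes in each library (horizontal axis), with circles for Gabra2, Gabrb1 and Gabrg1 and squares for Gabrb2. In WT 17 the circles are lower than in WT 13, at 23.3, 55.2 and 47.8 CPM, while the square is higher, at 71.5 against 30.2 CPM.

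The GABA-B subunit genes gave different pictures. Gabbr1, on chromosome 17 from 37045966 to 37074305, encodes the subunit that binds GABA. It measured 678, 865 and 620 CPM in KO 14, 16 and 18 and 885, 701 and 596 CPM in WT 13, 15 and 17. The groups of Gabbr1 overlapped, with means of 721 ± 128 and 727 ± 147 CPM (n = 3 each, SD) and a 95% interval of the fold from 0.727 to 1.35. Gabbr2, on chromosome 4 from 46662318 to 46991714, encodes the subunit that couples to the G protein. It measured 135, 139 and 115 CPM in KO 14, 16 and 18 and 102, 122 and 99.9 CPM in WT 13, 15 and 17. The groups of Gabbr2 overlapped through KO 18 and WT 15. The means were 130 ± 12.9 and 108 ± 12.3 CPM (n = 3 each, SD), a log2 fold change of 0.27 with an SE of 0.15. The 95% interval of the fold ran from 0.951 to 1.52 (unadjusted p = 0.108 in edgeR's quasi-likelihood test, exact permutation p = 0.2). Within title number 5 the log2 difference of Gabbr2 was 0.43, and within 6 it was 0.061. In the authors' deposited table, whose test is not named, the log2 fold change of Gabbr2 was 0.26. Its unadjusted p there was 0.0407 and its adjusted p 0.675, again with the handling of the 2 entries of a library not given. Without KO 18 the unadjusted p of Gabbr2 in edgeR's quasi-likelihood test was 0.0493 (adjusted p = 0.999). By the same test it was 0.237 without KO 14 and 0.262 without KO 16. It was 0.210, 0.0639 and 0.267 without WT 13, 15 and 17. Reads of Gabbr1 per read of Gabbr2 were 5.01, 6.21 and 5.38 in the knockout libraries and 8.69, 5.74 and 5.97 in the wild-type libraries, with WT 13 above all others (exact permutation p = 0.3).

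**Figure D5:**
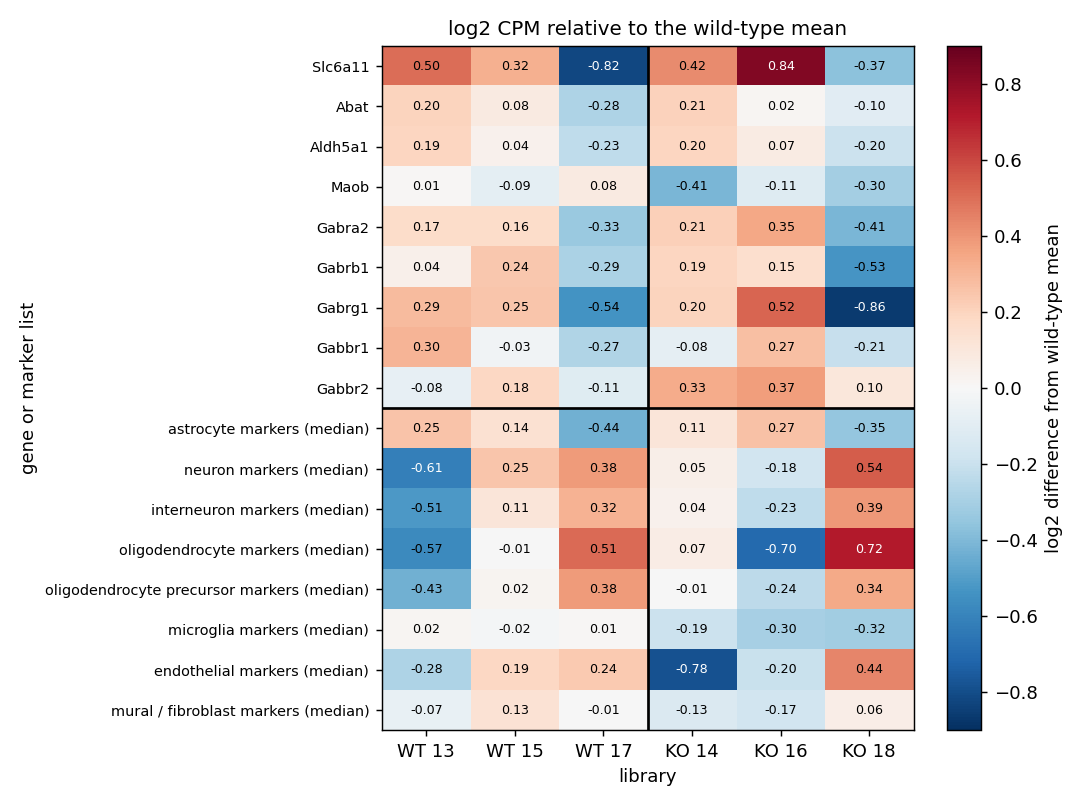
Log2 CPM relative to the wild-type mean for each of the 9 genes and for the median of each cell type marker list (rows) in the 6 libraries (columns), printed in each cell and coloured from blue (lower) to red (higher). Libraries WT 17 and KO 18 are the lowest for 7 of the 9 genes, all but Maob and Gabbr2. They are also the lowest for the astrocyte markers (-0.44 and -0.35). For the neuron (0.38 and 0.54) and oligodendrocyte markers (0.51 and 0.72) they are the highest.

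Other genes of GABA handling showed no genotype difference that passed. Of 77 genes on 7 further lists 69 were tested, and 0 passed and 0 reached a p of 0.05 before adjustment in the quasi-likelihood test of edgeR. Of the 69, 24 were on the higher and 45 on the lower side, with a median log2 fold change of -0.043. Of 6 transport genes 5 were tested, 2 of them on the higher and 3 on the lower side, and Slc6a6, the taurine transporter gene, measured 23.3 ± 2.08 CPM in KO and 25.1 ± 3.92 CPM in WT (n = 3 each, SD). Synthesis and putrescine genes (9 of 9) had a median of -0.012. Among them Sat1, which acetylates polyamines, was the 1 gene of all 69 whose groups did not overlap: 404, 393 and 401 CPM in KO 14, 16 and 18 and 391.6, 367 and 369 CPM in WT 13, 15 and 17, higher by 0.086 on the log2 scale (exact permutation p = 0.1). Among all genes, 2.95% did not overlap in that direction.

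Genes downstream of GABA breakdown (9 of 9 tested) had a median log2 fold change of -0.019. Glul, the astrocyte glutamine synthetase gene, stood at 9261 ± 761 and 9819 ± 461 CPM, and Glud1, for glutamate dehydrogenase, at 959 ± 69.7 and 952 ± 138 CPM in KO and WT (n = 3 each, SD). Anchoring and trafficking genes of GABA-A receptors (14 of 14) had a median of -0.042. Dbi, the gene of an endogenous benzodiazepine-site peptide made by astrocytes, was highest in libraries 17 and 18, at 2085 and 2151 CPM against 1350 to 1429 CPM in the other 4. Gabarapl1 stood at 600 ± 97.3 and 565 ± 45.3 CPM (n = 3 each, SD). GABA-B partners (16 of 16) had a median of -0.0080, with the G protein genes Gnao1 at 602 ± 28.4 and 627 ± 48.1 CPM and Gnb1 at 557 ± 54.8 and 597 ± 23.3 CPM. Genes that handle chloride and bicarbonate (7 of 7) had a median of -0.016, with Car2, a carbonic anhydrase gene, at 650 ± 83.8 and 653 ± 63.5 CPM and the bicarbonate transporter gene Slc4a4 at 411 ± 86.0 and 446 ± 93.8 CPM (n = 3 each, SD).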

How the data were processed

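Ribosome-bound RNA pulled down from astrocytes was sequenced as ribosomal RNA-depleted total RNA. The authors deposited RSEM expected counts per feature and entry, unscaled, per the file headers. The submitters' processing notes name STAR 2.5.3a, RSEM 1.3.0, edgeR and mm10. No source used here gives the strand setting or the annotation release. The authors' deposited table holds p-values, log2 fold changes and, per entry, a scaled signal that was not used. No source used here names its test or says whether the 2 entries of a library were taken as separate samples.

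The 2 entries of a library differed by about the sampling noise for most features (median chi-square per feature 0.467 to 0.495, against 0.455 for noise alone and 2.93 to 18.8 between libraries of a group), and by more for some, with a chi-square per degree of freedom of 1.17 to 2.33 where noise gives 1, so each pair was added up as 1 sample and rounded to integers. Genes were filtered with filterByExpr and scaled by TMM, and 14990 went into the quasi-likelihood F test of edgeR 4.0.16 (R 4.3.3), with p-values adjusted by Benjamini-Hochberg and called under 0.05. DESeq2 1.42.0, edgeR's exact test and voom of limma 3.58.1 were alternatives, beside other scaling, filters, a covariate and libraries left out. The scripts were tested on simulated data. CPM means carry the SD over 3 libraries, and single values and ratios were tested by exact two-sided permutation.

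The members and the other lists were chosen with earlier results of these data known. Named are the 9 members, Fmr1, the 2 genes with the highest mean CPM of each further list (and any gene called there), the partners in the ratios and the 3 genes most like Slc6a11. Of these, 3 genes are not reported here, nor are 2 of the 6 ratios. Gene positions and start windows come from RefSeq tables of GRCm38.p6, where the symbols of all 9 members matched. Transcript lengths were not used, so levels are compared between libraries and not between genes.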

Additional observations from a re-analysis of the deposited data

How the results depend on the processing

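For the 9 members no alternative gave a call: 0 passed in each fit, with adjusted p of at least 0.965. Over all genes the count of calls was 0, but 8 with DESeq2, 9 with edgeR's exact test, 6 without a filter on low counts and 0 to 2 when each library was left out in turn (2 without knockout library 18 and 1 without wild-type library 15). The median log2 fold change of the 9 members was -0.28 without knockout libraries 14 and 16, an alternative chosen after seeing the data, and -0.094 to 0.15 when each library was left out in turn. The lowest member count was 266, and what depth or the number of libraries adds to the intervals was not tested. Directions turned for values near 0 and also for Slc6a11 (0.27 with all libraries) and Aldh1a1 (-0.41), and the cause was not tested.

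With the title number as a covariate the log2 fold change turned to -0.043 for Slc6a11, -0.048 for Abat, -0.081 for Aldh5a1, -0.12 for Gabra2, -0.34 for Gabrg1, 0.23 for Aldh1a1, -0.068 for Glud1, 0.23 for Gabrb2, -0.078 for Tmem144, -0.21 for Prnp and -0.12 for Fam198a. Without knockout libraries 14 and 16 it turned to -0.45 for Slc6a11, -0.090 for Abat, -0.18 for Aldh5a1, -0.40 for Gabra2 and -0.89 for Gabrg1. With limma voom it was -0.0097 for Gabra2, -0.095 for Gabrg1, 0.12 for Aldh1a1 and 0.047 for Gabrb2. For Car2 it was 0.0017 with RLE size factors and 0.0014 with DESeq2, and for Gabbr1 0.0055 when scaled to astrocyte markers. On first entries only, the log2 difference of Abat over Aldh5a1 was -0.0047.

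Leaving out each library in turn gave log2 fold changes from -0.035 to 0.54 for Slc6a11, -0.094 to 0.14 for Abat, -0.085 to 0.13 for Aldh5a1, -0.090 to 0.26 for Gabra2, -0.18 to 0.15 for Gabrb1, -0.29 to 0.33 for Gabrg1, -0.16 to 0.15 for Gabbr1, -0.17 to 0.033 for Slc6a6, -0.92 to 1.32 for Aldh1a1, -0.087 to 0.12 for Glud1, -0.32 to 0.24 for Gabrb2, -0.24 to 0.23 for Dbi, -0.044 to 0.19 for Gabarapl1, -0.11 to 0.0011 for Gnao1, -0.071 to 0.097 for Car2, -0.28 to 0.038 for Slc4a4, -0.026 to 0.15 for Maoa, -0.12 to 0.42 for Tmem144, -0.22 to 0.38 for Prnp, -0.19 to 0.43 for Fam198a, -0.022 to 0.052 for the ratio Abat over Aldh5a1 and -0.021 to 0.77 for the ratio Slc6a11 over Aldh1l1. Maob (-0.36 to -0.21) and Gabbr2 (0.21 to 0.37) kept their direction in each of these fits. For Maob this was all but fixed in advance, since its groups did not overlap. No paired analysis was possible because the labels give no pairing of the libraries.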

Other observations

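Aldh1a1, a retinaldehyde dehydrogenase gene that also acts in one route from putrescine to GABA, differed more between libraries than any other named gene but Fmr1. It measured 396, 96.3 and 251 CPM in KO 14, 16 and 18 and 101, 98.4 and 790 CPM in WT 13, 15 and 17. Without WT 17 its log2 fold change was 1.32, against -0.41 with all 6 libraries.

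The genes whose log2 CPM profile over the 6 libraries lay nearest to that of Slc6a11, among 9348 others with a mean of at least 10 CPM, were Tmem144, Prnp and Fam198a. Their root mean square difference from Slc6a11 was 0.078, 0.099 and 0.11 log2 units. Prnp, the prion protein gene, measured 1270, 1782 and 746 CPM in KO 14, 16 and 18 and 1551, 1322 and 649 CPM in WT 13, 15 and 17. Of the members Gabrg1 was the nearest to Slc6a11, at 0.24, and Maob the farthest, at 0.62.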
